A study of Felis catus with 20 samples.

Results

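Of the 10 cats in this crossover study, Ash, Michael, Monster and Slim are the 4 whose sample labels give the short day (SD) in period 1 and the long day (LD) in period 2. They contributed 8 of the 20 libraries, one SD and one LD library each. Each SD day had 8 hr of light and 16 hr of dark, the reverse of an LD day. The remaining 6 cats had LD first, and they are used only for comparison. All were healthy, neutered male domestic shorthair cats, adult and lean, and food was given in amounts that held BW constant. RNA came from whole subcutaneous abdominal adipose biopsies taken under sedation at wk 12 of each period, and reads were counted per Ensembl gene. Before the study the animals had lived mostly under the LD light cycle, and an acclimation period with equal hours of light and dark came directly before period 1. Within these cats, day length and period changed together and cannot be told apart. The methods describe equal group sizes and a room for each group, whereas the labels give 4 and 6 cats, and the labels were followed. Order and room therefore cannot be told apart either in any comparison with the LD-first cats.

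Day length reaches mammalian tissues mainly through the nightly release of melatonin from the pineal gland, which lasts longer when nights are long. In seasonal mammals the duration of this signal sets reproduction, coat, food intake and fat stores. Subcutaneous adipose tissue stores triglyceride in adipocytes, secretes hormones such as leptin and adiponectin, and also holds vessels, immune cells, fibroblasts and adipocyte precursors. A whole biopsy measures the mixture of all these cells. The deposited table holds Ensembl gene identifiers, and none could be paired with a symbol here. Genes are therefore given by identifier, and neither the adipose identity of the biopsies nor any pathway could be checked against its marker genes.

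Between 16146032 and 21926358 reads per library were counted on genes, and 15813 to 16473 genes had at least 1 read. CPM are counts scaled to the reads on genes of the library, and 3 reads made 0.137 to 0.186 CPM. No library was a copy of another, since the lowest chi-square per gene over the 28 pairs was 50.6, between the libraries of Monster. The columns of Michael on LD and Monster on SD carry a different letter from the other 6, the meaning of which is not given in the sources used here.

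The cats did not change alike from SD to LD, and the makeup of the libraries moved in opposite directions in 2 pairs of cats. In Ash, the 50 genes with the highest counts in a library held 38.0% of its gene reads on SD and 24.8% on LD. The change was larger in Michael, from 51.6% on SD to 22.2% on LD. The share went the other way in Monster, from 41.8% on SD to 45.1% on LD, and in Slim, from 23.2% to 31.9%. Michael thus supplied both the highest and the lowest of the 8 values, and the SD and LD ranges overlapped. The share of all reads that fell on no annotated gene moved opposite to this in every cat. It was higher on LD in Ash, at 27.5% against 22.5% on SD, and in Michael, at 29.6% against 18.0%. It was lower on LD in Monster by a little, at 20.3% against 20.7%, and in Slim, at 25.4% against 29.2%.

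The TMM factor, with which edgeR corrects each library size for a few genes that take up many reads, was 0.881 on SD and 1.23 on LD in Ash. It was 0.645 and 1.48 in Michael, the lowest and the highest of the 8 libraries. It was 0.846 and 0.758 in Monster and 1.32 and 1.14 in Slim. The scaling thus also separated the cats into those with the higher factor on LD and those with the higher factor on SD. For the 3 measures, an exact two-sided sign-flip permutation test on the within-cat differences gave p = 0.5 each, or 0.6 when adjusted by Benjamini-Hochberg over the 6 measures computed. With 4 cats the smallest two-sided p is 2 of 16 combinations, so the test cannot reach 0.05.

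**Figure D1:**
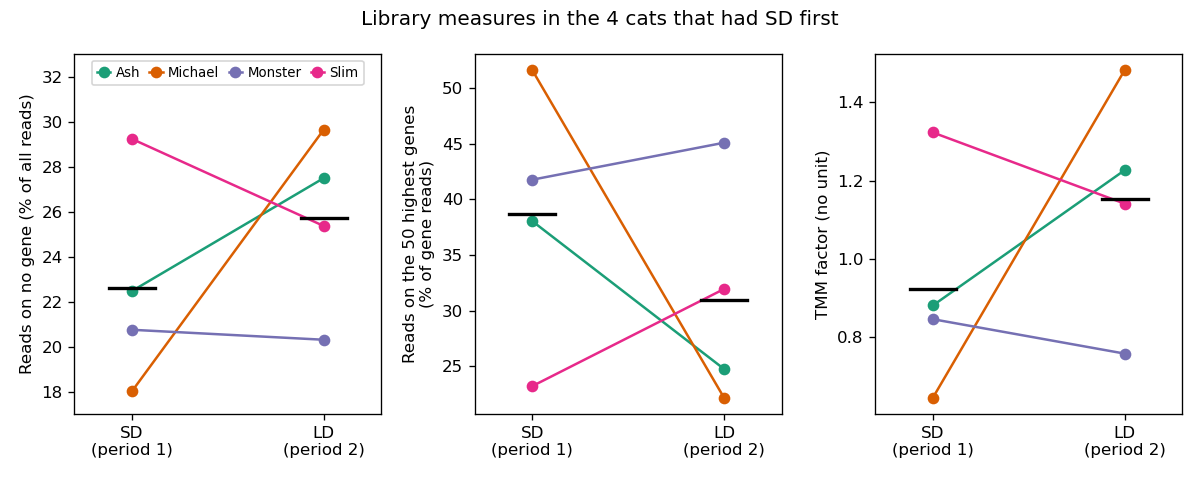
The share of reads on no gene, the share of gene reads held by the 50 highest genes (both in %) and the TMM factor are plotted for SD and LD, with a line for each cat and a black bar for the mean of 4 cats. In each panel the lines of Ash and Michael slope one way and those of Monster and Slim the other, and Michael spans from 51.6% to 22.2% in the middle panel.

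Paired within cats, 10 of the 13868 genes that reached 1 CPM in any of the 8 libraries differed between SD and LD at the raw p threshold of 0.005 used in the study (edgeR quasi-likelihood F test with the cat as block). This was 0.0721% of the genes tested. All 10 were lower on SD, which is to say higher in period 2, and none was higher on SD. No gene had a Benjamini-Hochberg adjusted p under 0.05 in this edgeR test, and the smallest adjusted p was 0.980. At a raw p under 0.05 there were 273 genes, or 1.97%. In bulk tissue, fewer cells of a type and less RNA per cell cannot be told apart for any of these genes.

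The raw p-values were short of small values. Uniform p-values would give 69.3 genes under 0.005 and 693 under 0.05, where 10 and 273 were observed. The fullest of the 20 equal bins, with 945 genes, lay between 0.35 and 0.40. The biological coefficient of variation, here the spread beyond counting error that remains once each cat's level and the day length are taken out, was 0.474 for these cats. The median SE of a log2 fold change was 0.32. In the same fit of the 6 LD-first cats, the coefficient was 0.325 and the median SE 0.21. There 49 genes of 14053 had a raw p under 0.005 and 1399, or 9.96%, a raw p under 0.05. No adjusted p was under 0.05 there either, the smallest being 0.471.

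On counts simulated for these 8 libraries, the raw threshold of the paired test found 76.6% of 4-fold and 19.9% of 2-fold changes. The adjusted threshold of 0.05 found 40.6% of 4-fold and 0% of 2-fold changes. A 2-fold change shared by the 4 cats would thus mostly not be detected with this number of cats and this spread. The simulated counts had 1 base level per gene for all cats and no changes shared by only some cats. Unchanged genes passed the raw threshold more often there, at 0.330% and 0.405%, than all genes did in the data, at 0.0721%. The simulated shares found may therefore be too high for these data.

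The 10 genes that passed were of low to middle abundance, with mean levels of 1.24 to 50.4 scaled CPM (CPM on the TMM-corrected library size), 3 of them under 10 and 7 between 10 and 100. Each was lower on SD in 4 of 4 cats. Their fitted log2 fold changes, SD over LD, lay between -5.13 and -0.89 with a median of -1.57. The median of all genes tested, which TMM scaling centres, was -0.01, and it was -0.32 with library size only. In the LD-first cats, for which SD came second, 6 of the 10 were lower on SD and 4 higher, where 51.8% of all genes were lower on SD. Of the 10, 1 had a raw p under 0.05 in those cats, in the direction of lower on SD. Of all genes tested there, 9.96% did, in either direction, and at that share nothing can be read from the count.

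The gene with the lowest p, ENSFCAG00000030236, was close to the detection floor in every SD library. It had 0.141 scaled CPM in Ash, 0.306 in Michael, 0.177 in Monster and 0.173 in Slim on SD, from 2, 4, 3 and 4 reads. On LD it had 0.730 in Ash, 38.2 in Michael, 8.24 in Monster and 3.07 in Slim, from 15, 1005, 137 and 61 reads. All LD values were above all SD values, but the LD values themselves spread over a wide range, from near the floor in Ash to high in Michael. The mean was 0.199 ± 0.0730 scaled CPM on SD and 12.6 ± 17.4 on LD (SD over cats, n = 4). The ratio of LD to SD reads, corrected for library size, was 75.8 over the 4 cats, with an exact 95% counting interval of 44.1 to 143. By cat it was 5.19 in Ash (1.21 to 46.8), 46.6 in Monster (15.6 to 229), 17.8 in Slim (6.60 to 67.3) and 125 in Michael (48.6 to 459). These intervals cover counting error only.

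The fitted log2 fold change of ENSFCAG00000030236, SD over LD, was -5.13 (SE 0.73, edgeR adjusted p = 0.980). The adjusted p was 5.4e-08 in edgeR's likelihood ratio test and 1.6e-06 in DESeq2, and from 0.875 upward in every other alternative that tested it. The gene reached 1 CPM only in the LD libraries of Michael, Monster and Slim. It thus passed the filter only through the day length on which it was high. A filter of 1 CPM in at least 4 libraries removed it. The gene did not pass the raw threshold with all 20 libraries in one fit, and without Michael the log2 fold change was -4.27. In the LD-first cats it went both ways, higher on SD in 4 and lower in 2, with a log2 fold change of 0.33 (SE 1.71, edgeR adjusted p = 0.939). On the scaling of all 20 libraries its level there ran from 0.142 to 38.6 scaled CPM on LD and from 0.237 to 181 on SD, with a median of 0.644 on SD. In those cats the SD and LD ranges thus overlapped, with the highest value on SD.

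The next lowest p belonged to ENSFCAG00000012504, which was read more evenly across the cats. It had 4.57 scaled CPM on SD in Ash, 13.5 in Michael, 11.8 in Monster and 6.05 in Slim. On LD it had 16.3 in Ash, 30.1 in Michael, 28.3 in Monster and 17.4 in Slim. Both groups kept Michael highest and Ash lowest, and no SD value reached the lowest LD value. The means were 8.97 ± 4.32 on SD and 23.0 ± 7.18 on LD (SD over cats, n = 4). The log2 fold change, SD over LD, was -1.44 (SE 0.21), that is 2.72-fold lower on SD (edgeR adjusted p = 0.980). In edgeR's likelihood ratio test the adjusted p was 0.0135 and in DESeq2 0.000634, and it was 0.875 or more in every other alternative. The gene did not pass the raw threshold in the fit without the pairing by cat. Of the LD-first cats, 5 of 6 had the lower level on SD, with a log2 fold change of -0.51 (SE 0.25, edgeR adjusted p = 0.471). On the scale of log2(scaled CPM + 1), which understates the change of low genes such as ENSFCAG00000030236, it was 1 of 2 genes over 2-fold lower on SD in each of the 4 SD-first cats. No gene was over 2-fold higher on SD in all 4 on that scale.

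In the other direction no gene passed in the paired quasi-likelihood test. The lowest p among genes higher on SD in 4 of 4 cats belonged to ENSFCAG00000014181, with 7.24, 12.8, 8.38 and 10.6 scaled CPM on SD and 4.43, 7.41, 2.47 and 3.27 on LD in Ash, Michael, Monster and Slim. The lowest SD value, in Ash, lay just below the highest LD value, in Michael. The means were 9.77 ± 2.48 and 4.39 ± 2.16 (SD over cats, n = 4), and the log2 fold change was 1.23 (SE 0.29, edgeR adjusted p = 0.980). The gene passed the raw threshold in 5 alternatives, the likelihood ratio test, DESeq2, DESeq2's size factors, no filter and all 20 libraries in one fit, but had no adjusted p under 0.05 in any. Without TMM scaling it was higher on SD in 3 of 4 cats. In the LD-first cats the log2 fold change was 0.09 (SE 0.24, edgeR adjusted p = 0.878), with 3 cats on either side.

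The next, ENSFCAG00000013370, had 41.7, 35.0, 84.9 and 55.0 scaled CPM on SD and 34.6, 15.6, 43.8 and 25.6 on LD in the same order of cats. The difference was small in Ash and about the same in ratio in the other 3, and the 2 groups overlapped. The means were 54.2 ± 22.1 and 29.9 ± 12.1 (SD over cats, n = 4). The log2 fold change was 0.87 (SE 0.23, edgeR adjusted p = 0.980), and without TMM scaling the gene was higher on SD in 2 of 4 cats. It passed the raw threshold in DESeq2 only. The log2 fold change in the LD-first cats was -0.39 (SE 0.26, edgeR adjusted p = 0.524), again with 3 cats on either side.

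**Figure D2:**
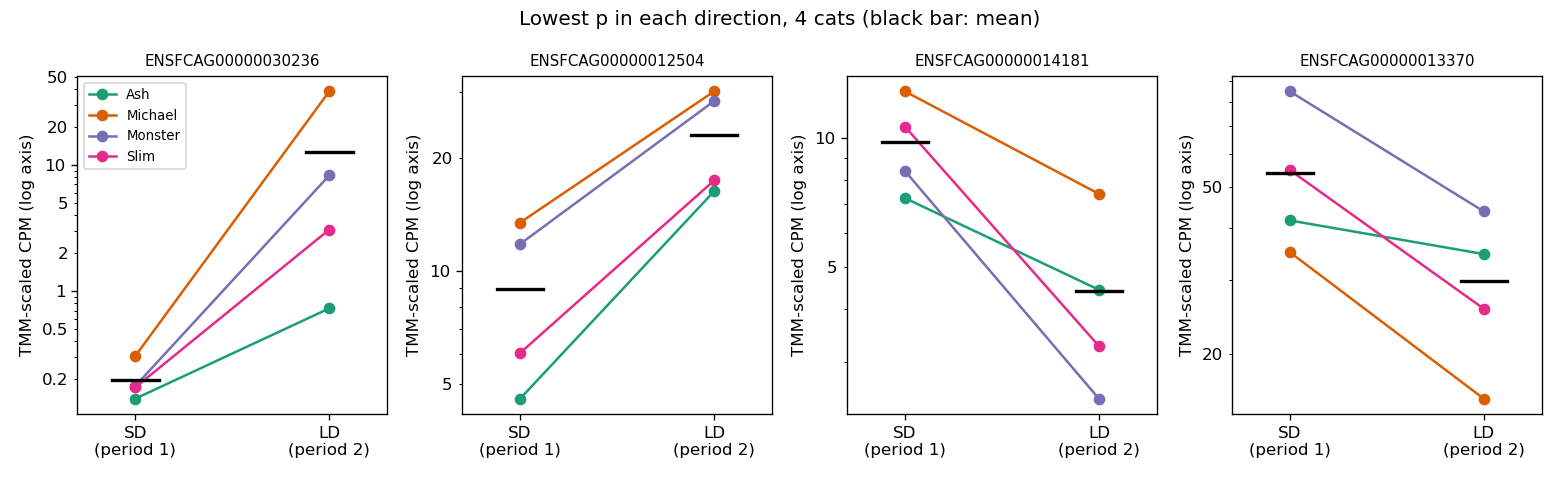
Scaled CPM, each panel on its own log axis, is plotted by day length for the 2 genes with the lowest p that were lower on SD and the 2 that were higher on SD in 4 of 4 cats, with a line per cat and a black bar for the mean. In the panel of ENSFCAG00000030236 the SD values lie between 0.141 and 0.306 and the LD values spread from 0.730 to 38.2, whereas the lines of ENSFCAG00000012504 run nearly parallel.

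Whether SD and LD differed by another amount here than in the LD-first cats was tested by the interaction of day length and order over all 20 libraries with the cat as block, which in a crossover is also the test of period. It had 40 genes of 14245 at a raw p under 0.005, with 5 higher and 35 lower on SD in the SD-first cats relative to the LD-first cats, and no adjusted p under 0.05 (edgeR, smallest 0.741). Without Michael the counts were close to even, 9 higher and 11 lower. At a raw p under 0.05 there were 854 genes, or 6.00%. Of the 10 genes above, 8 were among them, but this test contains the same 8 libraries that chose the 10 and is not independent of that choice. The interaction log2 value, SD-first minus LD-first, was -5.67 (SE 2.37) for ENSFCAG00000030236 and -0.95 (SE 0.35) for ENSFCAG00000012504. It was 1.12 (SE 0.39) for ENSFCAG00000014181 and 1.23 (SE 0.39) for ENSFCAG00000013370. Each of the 4 had a raw p under 0.05 but above 0.005 in edgeR, and an adjusted p of 0.741.

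Day length was also compared within a period, between different cats. In period 1 the SD libraries of the 4 cats were set against the LD libraries of the 6 others. There 40 of 13913 genes had a raw p under 0.005, with 17 higher and 23 lower on SD, and the smallest edgeR adjusted p was 0.661. More genes were higher than lower on SD without Ash (25 and 13), without Michael (10 and 7) and without Slim (109 and 53). In period 2, where these cats supplied the LD libraries, 22 of 14038 genes passed, with 14 higher and 8 lower on SD, and the smallest edgeR adjusted p was 0.998. More were lower than higher without Monster (89 and 39), without Slim (10 and 8), without Ash (12 and 6) and without Bugsy, an LD-first cat (59 and 31). Neither period thus had a balance of directions that held without each cat. Of the 10 genes above, all were lower on SD in period 1 and 7 in period 2. The share of all genes lower on SD within each period is not given here, so these counts cannot be judged against it. Both comparisons also share libraries with the one that chose these genes, so the counts are a description only. With TMM scaling, which centres the fold changes, their log2 median over every gene tested was -0.0038 in period 1 and -0.027 in period 2. Scaled by library size only, the medians were -0.31 and -0.084. ENSFCAG00000012504 had a log2 fold change of -0.46 in period 1 (SE 0.38), where it did not pass the raw threshold, and of -1.43 in period 2 (SE 0.24, edgeR adjusted p = 0.998), where it did.

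The small number of genes past the threshold did not mean that the SD and LD libraries of a cat were alike. In Michael, 2154 genes were over 2-fold higher and 1850 over 2-fold lower on SD, together 28.9% of the 13868 genes. These within-cat changes are differences of log2(scaled CPM + 1), which understate the change of genes near or under 1 CPM. In Ash 768 genes were over 2-fold higher and 781 lower (11.2%), and in Slim 447 and 823 (9.16%). Monster changed least, with 202 higher and 208 lower (2.96%). The median absolute log2 change was 0.64 in Michael, 0.34 in Ash, 0.28 in Slim and 0.21 in Monster. Between cats of the 2 orders, the size of the change did not separate. On the genes tested in all 20 libraries, the median absolute log2 change was 0.365 ± 0.182 in the 4 SD-first and 0.339 ± 0.0813 in the 6 LD-first cats (SD over cats). An exact two-sided permutation test over the 210 splits of the cats gave p = 0.795. Michael lay above all other cats, at 0.626 where the highest LD-first cat was at 0.467.

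The changes of Ash resembled those of Michael, and ran against those of Monster and Slim. Across the 13868 genes, which are not independent replicates, the within-cat log2 changes correlated at r = 0.724 between Ash and Michael and at r = 0.367 between Monster and Slim. Between Ash and Slim r was -0.532, between Michael and Slim -0.555, between Ash and Monster -0.315 and between Michael and Monster -0.311. Each point is a gene, and the points share the depth and the scaling of the 4 libraries compared. Without TMM scaling r was 0.726 for Ash and Michael and 0.372 for Monster and Slim. Of the genes over 2-fold changed in both Ash and Michael, 677 were higher on SD in both, 182 lower in both and 49 opposite. In Monster and Slim the same counts were 70, 86 and 11.

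**Figure D3:**
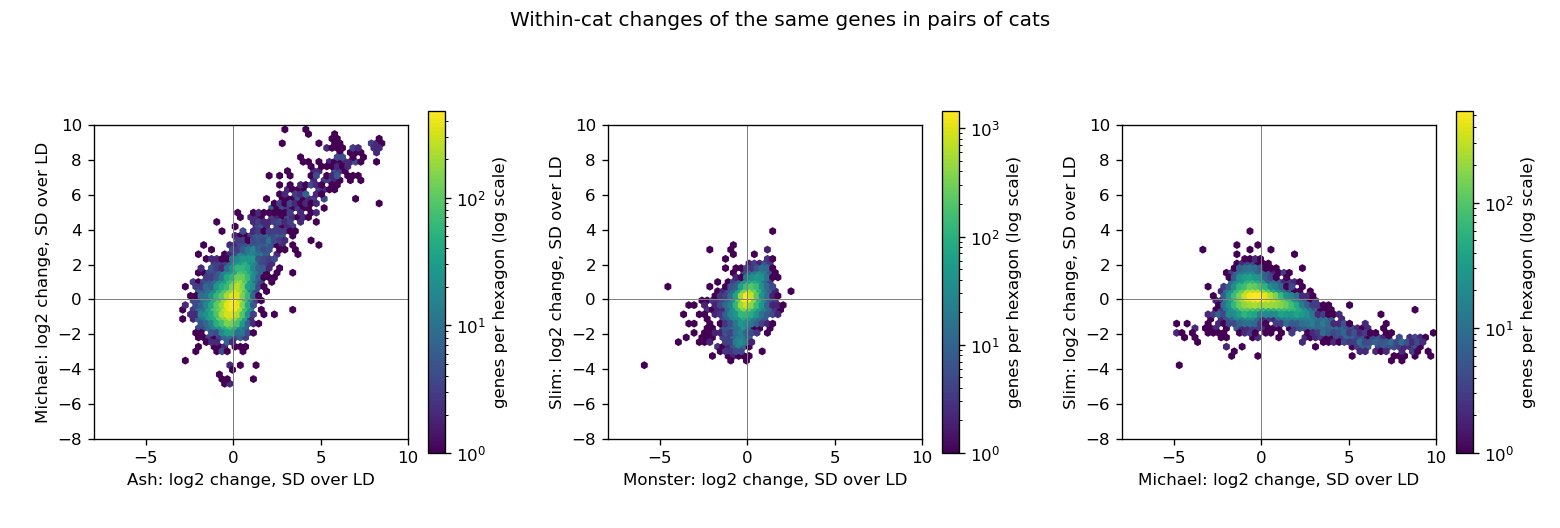
Each hexagon counts genes (colour, log scale) by their within-cat log2 change, SD over LD, in 2 cats, for Ash and Michael, Monster and Slim, and Michael and Slim. The cloud of Ash and Michael rises to the upper right (r = 0.724), that of Monster and Slim is small and tilts upward (r = 0.367), and that of Michael and Slim bends down to the right (r = -0.555).

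The genes that moved the same way in all 4 cats were counted in each direction. With TMM scaling, 391 of the 13868 genes (2.82%) were higher on SD in 4 of 4 cats and 858 (6.19%) were lower. Without TMM scaling these counts were 80 and 936. The median log2 change of all genes was then -0.39 in Ash, -1.11 in Michael, 0.11 in Monster and 0.18 in Slim. Over 2-fold lower on SD in Michael were 7562 genes without TMM scaling and 1850 with it. With TMM scaling the medians were 0.0045, -0.16, -0.017 and -0.0052 in the same order of cats. The TMM-scaled SD and LD values did not overlap for 152 genes (1.10%), 28 with the higher level on SD and 124 with the lower.

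The 677 genes over 2-fold higher on SD in both Ash and Michael were followed as a set. Their changes in those cats chose them, so the values of Ash and Michael are a description, and the set itself was chosen after values were seen and is not tested. The median log2 change of the set, SD over LD, was 2.11 in Ash and 3.61 in Michael. In Monster it was -0.30, and 587 of the 677 genes were lower on SD, where 52.7% of all genes were. In Slim it was -1.55, with 671 of the 677 lower on SD and 50.6% of all genes. Both cats that did not choose the set thus had it lower on SD, also without TMM scaling, where the medians were -0.15 in Monster and -1.40 in Slim. None of the 677 passed the raw threshold in the paired test, where 0.0721% of all genes did, and at that share nothing can be read from the count.

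These genes held a large share of the reads. In Michael they took up 55.0% of gene reads on SD and 2.19% on LD, and in Ash 32.7% on SD and 2.28% on LD. In Monster they took up 40.9% on SD and 46.0% on LD, and in Slim 6.92% and 26.9%. The libraries with little of the set were thus the LD libraries of Ash and Michael and the SD library of Slim, and no other library was under 26.9%. In the 12 libraries of the LD-first cats the share lay between 5.08% and 35.5%, with a median of 27.3%. The set was also higher on SD in most of those cats, whose libraries had no part in choosing it. On the scaling of all 20 libraries its median log2 change, SD over LD, was 1.87 in Julio, 1.82 in Tiger, 1.81 in Nickel and 0.89 in Bugsy, but -0.15 in Belly and -1.45 in MB. The set was thus higher on SD in some cats and lower in others within both orders.

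**Figure D4:**
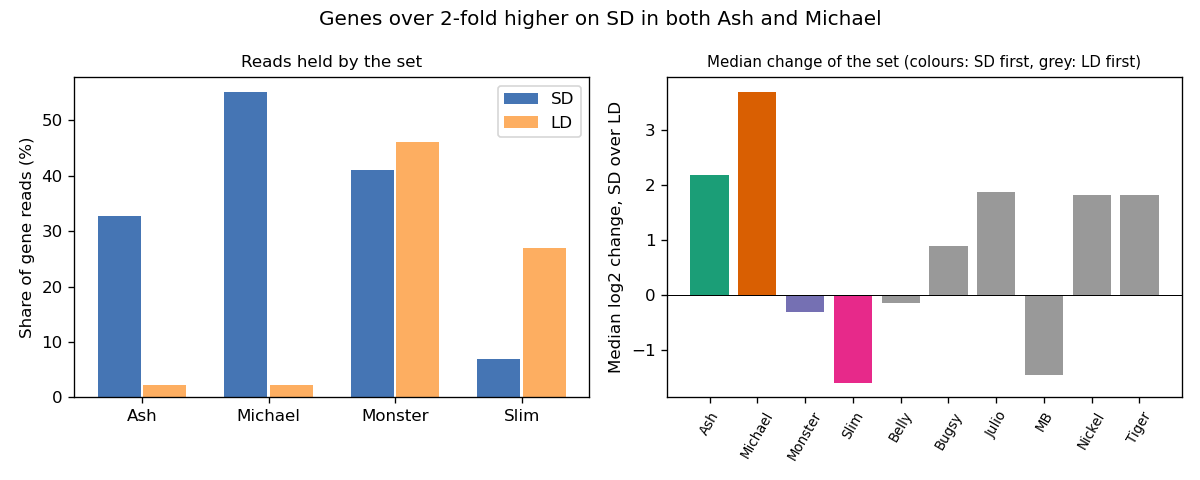
The left panel gives the share of gene reads (%) held by the 677 genes on SD and LD in the 4 cats, and the right panel the median log2 change of the set, SD over LD, in all 10 cats on the scaling of the 20 libraries. The share was 55.0% on SD and 2.19% on LD in Michael and 32.7% and 2.28% in Ash, and was higher on LD in Monster and Slim. Bars of both signs stand in both orders.

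The set reached into the most abundant transcripts. It held 24 of the 50 genes with the highest mean level over the 8 libraries and 47 of the 120 genes with a mean of 1000 scaled CPM or more. Among all 13868 genes tested it held 677. Of the 50, 36 were higher on SD in Ash and 39 in Michael, against 12 in Monster and 16 in Slim. Of all genes, 50.3%, 43.1%, 47.2% and 49.4% were, in the same order. The mean that ranked the 50 includes these libraries, and the 24 were chosen as higher on SD in Ash and Michael. The directions in those cats are thus partly set by choice and are a description only. Their median log2 change was 0.65 in Ash and 3.05 in Michael, and -0.16 in Monster and -1.66 in Slim. Single changes among them ran from -3.09 to 9.47 in Michael and from -1.40 to 0.80 in Monster. The 120 genes together held 46.4% of gene reads on SD and 29.3% on LD in Ash, and 57.7% and 25.4% in Michael. In Monster they held 50.1% and 52.6%, and in Slim 29.7% and 40.4%.

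The same division appeared in the principal components of the 8 libraries, computed on log2(CPM + 1) of 12653 genes. Component 1 held 71.7% of the variance (jackknife SE over cats 9.41). From SD to LD its score went from -16.4 to 75.6 in Ash and from -90.4 to 94.4 in Michael. It went from -49.2 to -71.7 in Monster and from 54.5 to 3.12 in Slim. The score was higher on LD in the cats in which the share of reads on no gene was higher on LD, and lower in the others. Component 2 held 10.5% of the variance and was higher on LD in each cat. Its score went from -43.5 to -30.4 in Ash, from -2.34 to 32.9 in Michael, from 9.09 to 14.2 in Monster and from -6.38 to 26.4 in Slim. Most of its variance lay between cats, 74.5%, with 18.9% between day lengths, and Ash stood apart from the other 3 on both day lengths.

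**Figure D5:**
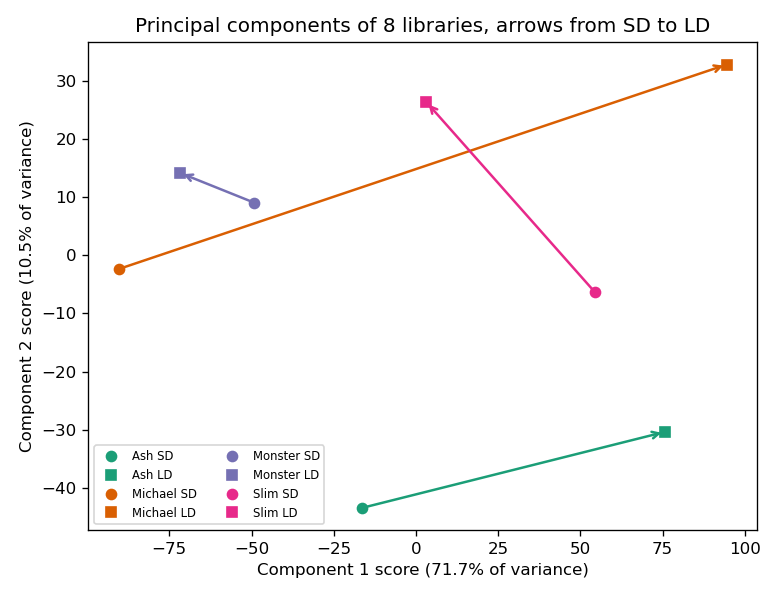
Scores of the 8 libraries on component 1 (71.7% of variance) and component 2 (10.5%) are plotted, with circles for SD, squares for LD and an arrow from SD to LD in each cat. The arrows of Ash and Michael point to the right and those of Monster and Slim to the left, and every arrow points upward.

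Over all genes, 41.4% of the variance of log2(scaled CPM + 1) lay between cats, 13.9% between day lengths and 44.7% in the rest. In the rest, changes particular to a cat cannot be told apart from differences between single biopsies and libraries. The share of the degrees of freedom that each of these 3 parts has is 42.9%, 14.3% and 42.9%. Day length with period thus took up about the share of variance that its single degree of freedom has. The SD and LD libraries of a cat were about as alike as libraries of different cats. Across genes r was between 0.767 (Michael) and 0.981 (Monster) for libraries of the same cat, with a median of 0.923. It was between 0.784 and 0.969 for libraries of the same day length and between 0.785 and 0.979 for libraries that shared neither, with medians of 0.914 and 0.930.

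Without Michael and Monster, the cats whose libraries carry the different letter, no gene of the paired comparison passed the raw threshold in edgeR, while 150 had a raw p under 0.05. Only Ash and Slim remained in this fit, and no other pair of cats was fitted. The drop cannot be told apart from the smaller number of cats. ENSFCAG00000030236 then had a log2 fold change of -3.40 and ENSFCAG00000012504 one of -1.67. Without Ash alone, 18 genes passed. The part that this letter had in the results was not tested.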

How the data were processed

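Single-end reads of adipose RNA from 20 libraries were trimmed by the authors, aligned with TopHat and Bowtie to Ensembl's cat genome and assigned to genes with htseq-count, and the raw counts were deposited without normalization or filter for 21890 genes. The submitters' processing notes name CASAVA 1.8.2, TopHat2 2.0.8, SAMtools 0.1.18 and edgeR 3.0.8. The 5 summary entries, such as reads on no gene, were kept out of library sizes and tests, and their shares are given in the results. Each column's sample was found from its cat name and period.

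From the counts, edgeR 4.0.16 (R 4.3.3) gave CPM, TMM factors and the quasi-likelihood F test (cat as block), on genes that reached 1 CPM in any library fitted. Fold changes are SD over LD. The raw p threshold of 0.005 follows the study, and Benjamini-Hochberg adjusted p-values over all genes tested stand beside it. Fitted log2 fold changes use edgeR's default prior count, and within-cat changes a pseudocount of 1 CPM. Libraries are paired because the labels give both to one named cat. A cat's deviations from the SD mean and from the LD mean correlated at 0.325 in Ash, -0.598 in Michael, 0.598 in Monster and -0.512 in Slim. Between a cat's SD deviations and the LD deviations of the other cats, the mean r was -0.080, 0.179, -0.237 and 0.195 in the same order. In Michael and Slim the own libraries were thus less alike than those of different cats, and the pairing rests on the labels alone.

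The named genes are, in each direction, the 2 identifiers with the lowest raw p among those with one direction in 4 of 4 cats. No identifier matched a symbol in the gene table used (0 matched), so planned gene lists and cell type markers were not analysed here. The cats and tests were chosen with earlier results of these data known, and the set of 677 genes, the abundance classes, the fit of the LD-first cats, the test of the size of change and the fit without the cats of the differently lettered libraries were chosen after seeing the data. The biopsies of a cat differ in time. The p-values of the paired test thus cover the spread of the within-cat changes, which includes that between single biopsies. Those of the comparisons within a period cover the spread between cats and biopsies.

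Other tests (likelihood ratio, DESeq2 1.42.0), scalings, filters, all 20 libraries in one fit, no block and leaving out each cat were tried. The paired test was tested on counts simulated for these 8 libraries with 200 genes changed. Of the unchanged genes, 0.330% (2-fold, 13528 genes) and 0.405% (4-fold, 13532 genes) passed the raw threshold. Intervals and the floor of 3 reads cover counting error only, as the reads had no molecular identifiers.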

Additional observations from a re-analysis of the deposited data

How the results depend on the processing

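For the paired comparison of SD and LD, the count of genes at a raw p under 0.005, 10 in the main test, was 67 with edgeR's likelihood ratio test (6 higher and 61 lower on SD), 74 with DESeq2 (7 and 67), 22 with all 20 libraries in one fit, 5 with scaling by library size only and 0 without the cats of the differently lettered libraries. It was 14 with no replicate block, and it ranged from 7 to 18 with one cat left out (18 without Ash). Genes at an adjusted p under 0.05 numbered 8 with the likelihood ratio test and 5 with DESeq2, among them both named genes that were lower on SD, and each had its highest CPM in a library of Michael. Both tests kept the 10 genes, while 3 to 7 of them remained with one cat left out. For the interaction with order, the raw count of 40 was 66 with no replicate block, 128 with the likelihood ratio test (2 adjusted), 217 with DESeq2, 17 with library size only and 13 to 124 with one cat left out. Within period 1 the raw count of 40 was 135 with DESeq2 (5 adjusted) and 17 to 164 with one cat left out. Within period 2 the count of 22 was 75 with DESeq2 (6 adjusted), 12 with library size only and 8 to 128 with one cat left out (0 to 1 adjusted). The cause of these differences was not tested. Component 1 held 67.1% to 81.3% of variance with one cat left out. The mean SD minus LD difference of reads on genes ranged from -802389 (without Michael) to 666292. Of the alternatives for the 4 named genes, 45 kept direction and side of the threshold, 4 lost and 6 gained it, and none changed direction. Depth limits genes near 3 reads.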

Other observations

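Some genes reached 1 CPM in a single library of the 8. The LD library of Michael had 254 such genes, the LD library of Ash 83, the SD library of Slim 70 and the LD library of Slim 52, while the other 4 libraries had between 4 and 31. The 3 libraries with the most of them were those in which the 677 genes held the smallest share of reads. The 182 genes over 2-fold lower on SD in both Ash and Michael, chosen in the same way, did not mirror the 677. In Monster 140 of them were higher on SD and 42 lower, with a median log2 change of 0.41, and in Slim 84 were higher and 98 lower, with a median of -0.03. Their median level was 14.5 scaled CPM, against 49.0 for the 677.

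The highest gene of a library alone held between 1.80% and 6.91% of its gene reads, both extremes in Michael (LD and SD). Alignments that the counter listed as not unique made up 2.42% to 4.88% of all entries. They went from 3.92% on SD to 2.46% on LD in Ash and from 4.71% to 2.42% in Michael, stood at 4.88% on both day lengths in Monster, and went from 2.69% to 3.18% in Slim.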
